A study of Mus musculus with 12 samples.

Results

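Metallothioneins are small, cysteine-rich proteins that bind zinc and copper, and Mt1 and Mt2 are the broadly expressed pair of the mouse family. The 2 genes were chosen from these arrays because their signal was low in cells carrying both endoglin and Flk1. They were followed through every probe that the scanner files assign to them, 3 of the 41174 gene probes and 2 of the 27548 gene names. The contrast of those double-positive cells with the others is therefore described here without a test. The 3 contrasts among the other fractions were tested.

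The cells came from 1 pool of about 300 CD-1 mouse embryos of 25 litters at embryonic day 7.5, with no genetic change or treatment named in any fraction. Whole embryos were stained with antibodies to endoglin, a co-receptor for ligands of the transforming growth factor beta family, and to Flk1, the vascular endothelial growth factor receptor encoded by Kdr. Sorting gave double-negative cells (Eng-Flk1-), cells with Flk1 alone (Eng-Flk1+), double-positive cells (Eng+Flk1+) and cells with endoglin alone (Eng+Flk1-), with 3 samples of 3000 cells in each fraction. Each sample's messenger RNA was turned into cDNA, amplified by a global PCR method and hybridised to its own 1-colour array, so 12 arrays were read. The samples share 1 pool, and p-values therefore measure the spread between sorted samples, which may be technical.

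Zinc entering a cell is sensed by the transcription factor MTF-1, which binds metal response elements in the promoters of Mt1 and Mt2 and raises their transcription. Glucocorticoids and oxidative stress raise it as well. In the early mouse embryo both genes are known for high expression in the visceral endoderm, the outer layer that feeds the embryo. Mt3, known from the brain, and Mt4, known from stratified epithelia, lie beside them in 1 cluster on chromosome 8.

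The promoter sequences are shown because the metal response element is the best known control site of both genes. They are the 250 bases before the RefSeq transcription start on the plus strand of GRCm38.p6, at chr8:94178839-94179088 for Mt1 and chr8:94172368-94172617 for Mt2. Capitals mark matches to the element's core, searched as TGCACNC and TGCGCNC on both strands.
Mt1 promoter: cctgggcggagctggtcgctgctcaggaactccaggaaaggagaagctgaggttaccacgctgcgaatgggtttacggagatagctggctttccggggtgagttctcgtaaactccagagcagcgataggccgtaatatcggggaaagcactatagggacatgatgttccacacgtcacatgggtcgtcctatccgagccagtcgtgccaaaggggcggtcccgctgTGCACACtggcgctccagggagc
Mt2 promoter: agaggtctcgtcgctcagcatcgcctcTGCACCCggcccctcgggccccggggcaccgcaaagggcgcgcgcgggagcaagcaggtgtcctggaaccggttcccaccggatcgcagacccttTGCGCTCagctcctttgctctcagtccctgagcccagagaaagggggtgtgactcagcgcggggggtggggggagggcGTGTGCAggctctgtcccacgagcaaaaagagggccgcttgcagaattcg
In the whole RefSeq window of 300 bases, which adds 50 bases after the start, Mt1 held 3 cores and Mt2 held 4. Of 32544 distinct promoter windows of that length in the same table, 25.9% held at least 1 core, 1.32% held as many as Mt1 and 0.298% as many as Mt2. Mt3 and Mt4 held 1 core each. A match to TGACNNNGC, the core of the antioxidant response element, was found once in the Mt2 window, as in 12.4% of windows, and these letters were not in the Mt1 window. The Sp1 core GGGCGG was found 3 times in the Mt1 window and was not in the Mt2 window, and 35.9% of windows held it at least once. Of the cores, 1 for Mt1 and 3 for Mt2 lay in the printed bases, and the others lay after the RefSeq start. Where transcription starts in these cells was not examined, so a core after that start may still lie in the promoter. The counts of the genes are thus not a comparison of their whole promoters. These matches describe the letters of these windows only, and bases beyond them were not searched. A site absent from a window may thus lie elsewhere in the promoter.

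Mt1 was measured by a pair of probes and Mt2 by 1. The first Mt1 probe, A_51_P294979, was printed as 10 spots and lies at chr8:97069240-97069299 in build mm8. The Mt2 probe, A_51_P246317, was printed as 1 spot at chr8:97062600-97062659, and the second Mt1 probe, A_52_P423810, as 1 spot at chr8:97069073-97069132. The files assign these probes to Mt1 and Mt2 transcripts, and an annotation of mm8 was not used here. The first Mt1 probe is shown because nearly every Mt1 value below rests on it, and its capitals mark the longest run, 10 bases, that it shares with a probe of Mt4.
Mt1 first probe: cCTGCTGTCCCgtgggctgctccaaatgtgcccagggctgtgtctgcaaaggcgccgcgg
Its longest run shared with the Mt2 probe was 5 bases, and 21 of 60 letters were identical without gaps. The probe letters thus differ between the genes, although cross-hybridisation itself was not measured.

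Levels are given as the log2 of the processed spot signal minus the 75th percentile of the same array, so 0 is the 75th percentile. All member spots were well above background on all 12 arrays and none was saturated. A level of one probe cannot be set against that of another, and only changes of a probe between arrays are read. Where all arrays of a fraction lie above or below those of another, the share of all genes doing so was not counted.

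Mt1 was high in both Flk1-negative fractions and low in both Flk1-positive fractions. Its level on the first probe was 5.46, 4.42 and 4.75 in Eng-Flk1-, with a mean of 4.88 ± 0.53 (SD, n = 3). In Eng+Flk1- it was 4.43, 4.48 and 4.66, with a mean of 4.52 ± 0.12 (SD, n = 3). In Eng-Flk1+ it was 2.03, 2.03 and 1.55, with a mean of 1.87 ± 0.28 (SD, n = 3). Every Flk1-negative array thus lay above every Eng-Flk1+ array. In Eng+Flk1+ the level was 2.61, 1.62 and 1.37, with a mean of 1.87 ± 0.66 (SD, n = 3). These 3 arrays spanned the Eng-Flk1+ values on both sides. The label under which Mt1 was chosen, a fall in Eng+Flk1+, therefore fits Mt1 only against the Flk1-negative fractions.

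Mt2 was high in the same Flk1-negative fractions, lower in Eng-Flk1+ and lowest in Eng+Flk1+. Its level was 5.28, 4.25 and 5.65 in Eng-Flk1-, with a mean of 5.06 ± 0.72 (SD, n = 3). In Eng+Flk1- it was 4.87, 4.88 and 4.95, with a mean of 4.90 ± 0.04 (SD, n = 3). These groups overlap, and the Eng+Flk1- arrays lay inside the range of the Eng-Flk1- arrays. In Eng-Flk1+ Mt2 was at 2.27, 1.24 and 0.69, with a mean of 1.40 ± 0.80 (SD, n = 3). In Eng+Flk1+ it was at -0.83, -0.95 and -1.96, with a mean of -1.25 ± 0.62 (SD, n = 3). The groups Eng-Flk1+ and Eng+Flk1+ did not overlap for Mt2, but the Eng+Flk1+ values are those that chose the gene. In unscaled spot signal, Mt2 ran from 8466 to 20506 on the 6 Flk1-negative arrays, from 935 to 3195 in Eng-Flk1+ and from 136 to 298 in Eng+Flk1+.

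**Figure D1:**
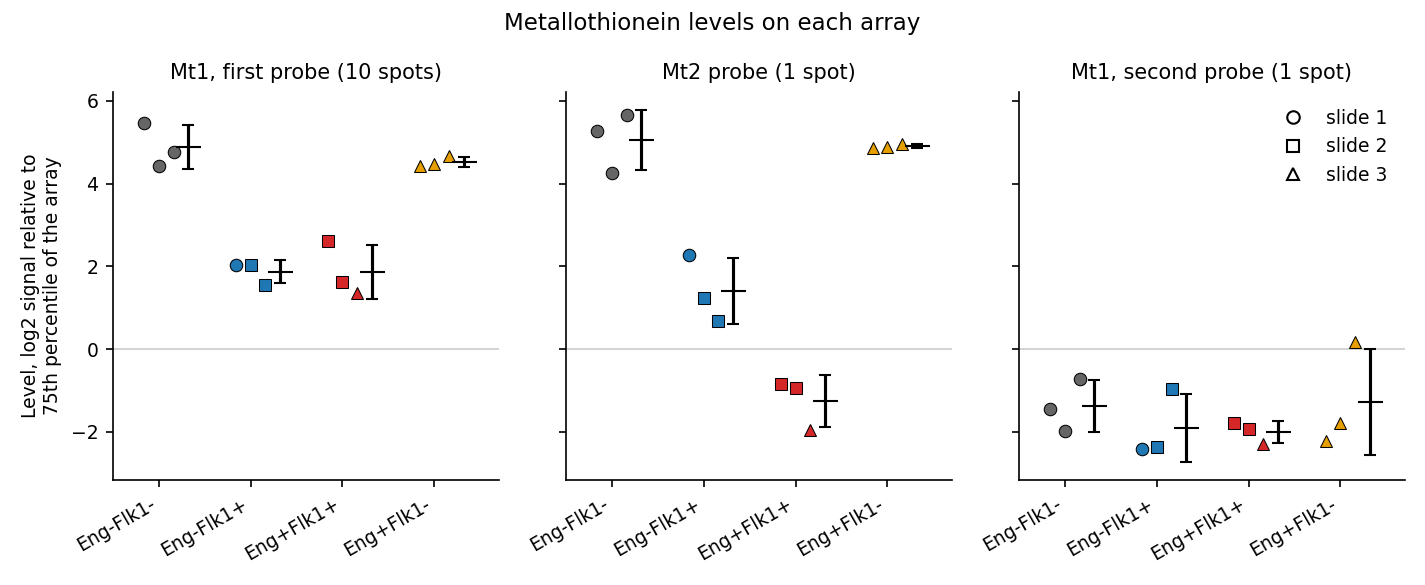
Level of each metallothionein probe on each of the 12 arrays (y axis, log2 signal above that array's 75th percentile) by sorted fraction (x axis); symbols give the slide, and bars give the mean and SD of 3 arrays. Mt1 on its first probe falls to about the same level in both Flk1-positive fractions (means 1.87 and 1.87), Mt2 steps down again in Eng+Flk1+ (mean -1.25), and the second Mt1 probe overlaps between all fractions.

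The fall of both genes in Eng-Flk1+ against Eng-Flk1- passed the test. This contrast asks how cells with Flk1 differ from cells without it where endoglin is absent. Mt1 was lower by a log2 fold of -3.01 ± 0.45 (SE), or 8.03-fold, with a 95% interval of -4.00 to -2.01 and an adjusted p of 0.0090 from limma. Mt2 was lower by -3.66 ± 0.55 (SE), or 12.6-fold, with an interval of -4.87 to -2.45 and an adjusted p of 0.0090 from limma. All 3 Eng-Flk1+ arrays were below all 3 Eng-Flk1- arrays for both genes. Of all 22724 genes tested, 1.91% were called in this contrast, 435 in number, of which 373 were higher. Only 0.273% of genes were called lower. The share of calls that were higher depended on the scaling, with 350 of 645 after quantile normalization, 196 of 358 in the authors' table and 178 of 247 after normexp background correction.

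Slide and fraction overlap in this design, as the array barcodes show. Slide 1 held all Eng-Flk1- arrays and 1 Eng-Flk1+ array, slide 2 held the other Eng-Flk1+ arrays with 2 of Eng+Flk1+, and slide 3 held the last Eng+Flk1+ array with all of Eng+Flk1-. Within slide 1, the single Eng-Flk1+ array lay below the mean of the Eng-Flk1- arrays by a log2 difference of -2.84 for Mt1 and -2.79 for Mt2. With slide as a block these were the fitted folds, with an SE of 0.67 for each, and adjusted p-values of 0.242 for Mt1 and 0.253 for Mt2 from limma. Both calls were lost with the block, and only 16 genes of the whole table were called.

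No difference between the Flk1-negative fractions passed the test for either gene. This contrast asks how endoglin-bearing cells differ where Flk1 is absent. Mt1 differed by a log2 fold of -0.35 ± 0.45 (SE) in Eng+Flk1- against Eng-Flk1-, with a 95% interval of -1.35 to 0.65 and an adjusted p of 0.755 from limma. Mt2 differed by -0.16 ± 0.55 (SE), with an interval of -1.37 to 1.05 and an adjusted p of 0.920 from limma. The intervals leave room for a change of more than 2-fold either way for Mt2 and downward for Mt1. The sign of both differences turned after quantile normalization, to 0.28 for Mt1 and 0.47 for Mt2. The fractions share no slide, and a slide block gave 0.64 for Mt1 and 2.22 for Mt2. In this contrast 1.46% of genes were called, 331 in number, with 1.23% higher and 0.224% lower. The 280 called higher compare with 162 of 233 after quantile normalization, 144 of 233 in the authors' table and 100 of 144 after normexp correction.

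Between the single-positive fractions, both genes were higher in Eng+Flk1- on every array but missed the threshold. The log2 fold against Eng-Flk1+ was 2.65 ± 0.45 (SE) for Mt1, or 6.29-fold, with an interval of 1.65 to 3.65 and an adjusted p of 0.0830 from limma. For Mt2 it was 3.50 ± 0.55 (SE), or 11.3-fold, with an interval of 2.29 to 4.71 and an adjusted p of 0.0538 from limma. Few genes were called at all in this contrast, 0.101% or 23 in number, 0.044% higher and 0.0572% lower. The 10 called higher compare with 23 of 38 after quantile normalization and 26 of 48 after normexp correction. The Eng-Flk1- arrays enter the shared estimate of spread, and the median SD of genes was 1.01 there against 0.56 to 0.67 in the other fractions. Mt1 and Mt2 themselves, at 0.53 and 0.72, did not have their largest SD there. Their largest were 0.66 in Eng+Flk1+ for Mt1 and 0.80 in Eng-Flk1+ for Mt2. Fitted without the 3 Eng-Flk1- arrays, Mt1 had an adjusted p of 0.0460 and Mt2 of 0.0372 from limma, at the same folds. These fractions share no slide, and with a slide block the folds were 3.48 for Mt1 and 5.01 for Mt2, with adjusted p-values of 0.737 and 0.387 from limma.

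The values that chose the genes are as follows, with no test. Against the mean of the other 3 fractions, Eng+Flk1+ was lower by a log2 fold of -1.89 ± 0.37 (SE) for Mt1 and -5.03 ± 0.45 (SE) for Mt2. Against Eng-Flk1-, the folds were -3.01 for Mt1 and -6.31 for Mt2, which is 79.2-fold on the linear scale. Against Eng+Flk1-, they were -2.66 for Mt1 and -6.15 for Mt2, which is 70.9-fold. Against Eng-Flk1+, the other Flk1-positive fraction, the Mt1 fold was -0.0031 ± 0.45 (SE) and the Mt2 fold -2.65 ± 0.55 (SE), which is 6.27-fold. The further step down in Eng+Flk1+ was thus seen for Mt2 and not for Mt1. On slide 2, where 2 arrays of each Flk1-positive fraction were together, Eng+Flk1+ minus Eng-Flk1+ was 0.33 for Mt1 and -1.86 for Mt2. On slide 3, Eng+Flk1- minus the single Eng+Flk1+ array was 3.16 for Mt1 and 6.86 for Mt2.

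On the single Mt2 spot and the first Mt1 probe, the double-positive arrays had less Mt2 signal relative to Mt1 signal than the other fractions. The Eng+Flk1+ values in this difference are those that chose the genes, so it is described without a test. The log2 difference of Mt2 minus Mt1 on the same array was -0.18, -0.16 and 0.90 in Eng-Flk1- and 0.44, 0.40 and 0.29 in Eng+Flk1-. It was 0.24, -0.78 and -0.86 in Eng-Flk1+, where the highest value came from the array on slide 1. In Eng+Flk1+ it was -3.44, -2.57 and -3.33, with a mean of -3.11 ± 0.47 (SD, n = 3) against -0.47 ± 0.61 (SD, n = 3) in Eng-Flk1+. All 3 double-positive arrays lay below the other 9. The difference is free of the scaling of an array, and its zero has no meaning because the probes differ. Over the 12 arrays the Pearson correlation of Mt1 with Mt2 was 0.916, a description over arrays that share fractions and slides.

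**Figure D2:**
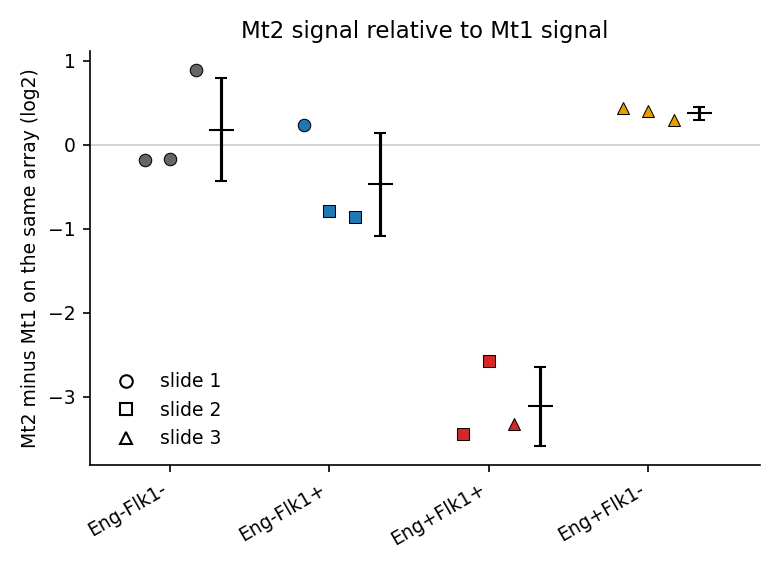
Mt2 minus Mt1 on the same array (y axis, log2) by sorted fraction (x axis), with symbols for the slide and bars for the mean and SD of 3 arrays. The Eng+Flk1+ arrays sit between -3.44 and -2.57, and the other 9 arrays between -0.86 and 0.90.

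The second Mt1 probe did not follow the first. Its level was -1.43, -1.98 and -0.73 in double-negative cells and -2.41, -2.37 and -0.96 in cells with Flk1 alone. In double-positive cells it was -1.80, -1.92 and -2.29, and with endoglin alone -2.21, -1.80 and 0.18. The last value, from replicate 3 of Eng+Flk1-, was a spot signal of 750, and the other arrays gave 109 to 298. The groups overlapped throughout. Tested among 33142 probes, its log2 fold in Eng-Flk1+ against Eng-Flk1- was -0.53 ± 0.69 (SE), with an adjusted p of 0.711 from limma, against -3.01 ± 0.47 (SE) and 0.0086 for the first probe. It lies 107 bases before the first probe in mm8 and is assigned to another transcript record of Mt1. Why the probes disagree was not tested. The 10 spots of the first probe agreed closely with each other, with an SD of 0.033 to 0.104 (log2) within an array.

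Mt3 and Mt4, the other genes of the cluster, did not pass the test in any contrast. The Mt3 level was -0.07 ± 1.05 (SD, n = 3) in double-negative cells, -0.10 ± 0.46 with Flk1 alone, 0.41 ± 0.23 in double-positive cells and -0.06 ± 0.17 with endoglin alone. For Mt4 the means were -0.28, -0.57, 0.21 and 0.01 in the same order, on the brighter of its probes, which stood for the gene. Its other probe had means of -3.36, -3.34, -2.25 and -3.25 in that order. In all 4 contrasts neither had an unadjusted p under 0.05 in limma. In Eng+Flk1+ against the mean of the others both had a log2 fold of 0.49, opposite in sign to Mt1 and Mt2.

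Genes for zinc sensing and transport control or share the work of metallothioneins. Of 25 such genes limma called 1 higher and 0 lower in Eng-Flk1+ against Eng-Flk1-, beside 1.64% and 0.273% over all genes, so 1 call is near the background. At an unadjusted p under 0.05 there were 6 of 25, and 4024 of 22724 over all genes. The median log2 fold of the list was 0.33 there, against -0.13 over all genes. The gene called was Slc30a5, a zinc transporter of the early secretory pathway, named because it was the only call. Its log2 fold was 2.30 ± 0.41 (SE) with an adjusted p of 0.0193 from limma. It was also the 1 call of the list in Eng+Flk1- against Eng-Flk1- (1.23% higher over all genes), at 1.93 ± 0.41 (SE) with an adjusted p of 0.0479 from limma. Its levels ran from -1.66 to -1.34 in Eng-Flk1- and from -0.27 to 1.36 on the other 9 arrays. Both calls were lost with slide as a block.

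Mtf1, the zinc-sensing factor itself, was well above background on all arrays of 3 fractions and on 1 array of Eng-Flk1-. There its level was 3.89, -5.86 and -5.48, and on the other 9 arrays it lay between 0.21 and 2.74. Slc30a1, the zinc exporter of the plasma membrane and another MTF-1 target, averaged -0.91 ± 1.82 (SD, n = 3) in double-negative cells, -0.25 ± 0.26 with Flk1 alone, 0.58 ± 0.61 in double-positive cells and -0.61 ± 1.75 with endoglin alone. Its log2 fold in Eng+Flk1+ against the mean of the others was 1.17 ± 0.80 (SE), with an adjusted p of 0.887 from limma. By likeness to Mt1 and Mt2 over the 12 arrays it ranked 15340 of 17447 genes. The list members with the lowest p in that contrast were Slc30a3 (1.94), Slc30a6 (1.15) and Slc39a6 (1.82), and none of these log2 folds passed. Slc30a6 averaged 2.12 in double-positive cells and 2.23 with endoglin alone. Slc39a6 averaged -1.22 in double-positive cells and -1.17 with Flk1 alone. It was well above background on only 1 array of Eng-Flk1-, so the size of its fold is uncertain. The Slc30a3 level in Eng+Flk1+ was 0.97 on replicate 1 and -3.78 and -1.97 on the others, so the size of its fold rested on that array.

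The lists for other known inducers and ligands were set beside the share over all genes. In Eng+Flk1+ against the mean of the others 0.409% of all genes were called by limma, 0.317% higher and 0.0924% lower. In that contrast 0 of 25 zinc genes, 0 of 13 copper-handling genes, 0 of 20 glutathione and antioxidant genes, 0 of 11 genes of the glucocorticoid receptor and response and 0 of 18 immediate early and heat shock genes were called. At an unadjusted p under 0.05 in limma the counts were 1, 0, 1, 0 and 2, beside 1753 of 22724 over all genes. The antioxidant list had the lowest median log2 fold, -0.53 against -0.01 over all genes, with 6 of 20 members above 0. Its lowest p values belonged to Gsr, glutathione reductase (-1.55 ± 0.61, SE), Slc7a11, the cystine importer (1.88 ± 0.98, SE), and Gpx1, a glutathione peroxidase (-0.72 ± 0.39, SE), and none passed. The Slc7a11 level in Eng+Flk1+ was -0.49 on replicate 2 and -5.40 and -5.42 on the others, so its fold rested on 1 array.

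Among copper genes the lowest p values in the same contrast were those of Cox11, a copper chaperone of cytochrome oxidase (0.85), Slc31a1, the copper importer (-0.66), and Ccs, the copper chaperone of superoxide dismutase (-0.56). Among glucocorticoid genes they were those of Sgk1 (1.57), Klf9 (-0.75) and Nr3c1, the receptor itself (-0.67). Among immediate early and heat shock genes, which respond to handling of cells, they were those of Zfp36 (1.81), Hsph1 (-2.72) and Socs3 (-0.93). None of these log2 folds passed. A fold against the mean of the others need not mark Eng+Flk1+ alone. Mean Sgk1 was 0.07 with Flk1 alone and 0.04 in double-positive cells, and mean Socs3 was -3.75 and -3.79. Mean Klf9 was -2.09 with Flk1 alone, -1.68 in double-positive cells and 0.45 with endoglin alone. Hsph1 was well above background on 1 array each of Eng+Flk1+ and Eng-Flk1-, 2 of Eng-Flk1+ and 3 of Eng+Flk1-, so the size of its fold is uncertain. The Zfp36 level in Eng+Flk1+ ran from -3.66 to 0.65. In Eng-Flk1+ against Eng-Flk1-, where Mt1 and Mt2 fell, 0 members of the copper, antioxidant, glucocorticoid and immediate early lists were called. At an unadjusted p under 0.05 in limma there were 2, 3, 1 and 2, beside 4024 of 22724 over all genes. Over all genes 1.91% were called there, so 0 calls in lists of 11 to 20 genes is near the background. In Eng+Flk1- against Eng-Flk1-, 1 of 20 antioxidant genes was called, and it was lower, beside 0.224% lower over all genes. This was Cat (catalase), at a log2 fold of -2.43 ± 0.45 (SE) and an adjusted p of 0.0289 from limma. Cat was named because it was the only call of its list, and the call was lost with slide as a block.

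**Figure D3:**
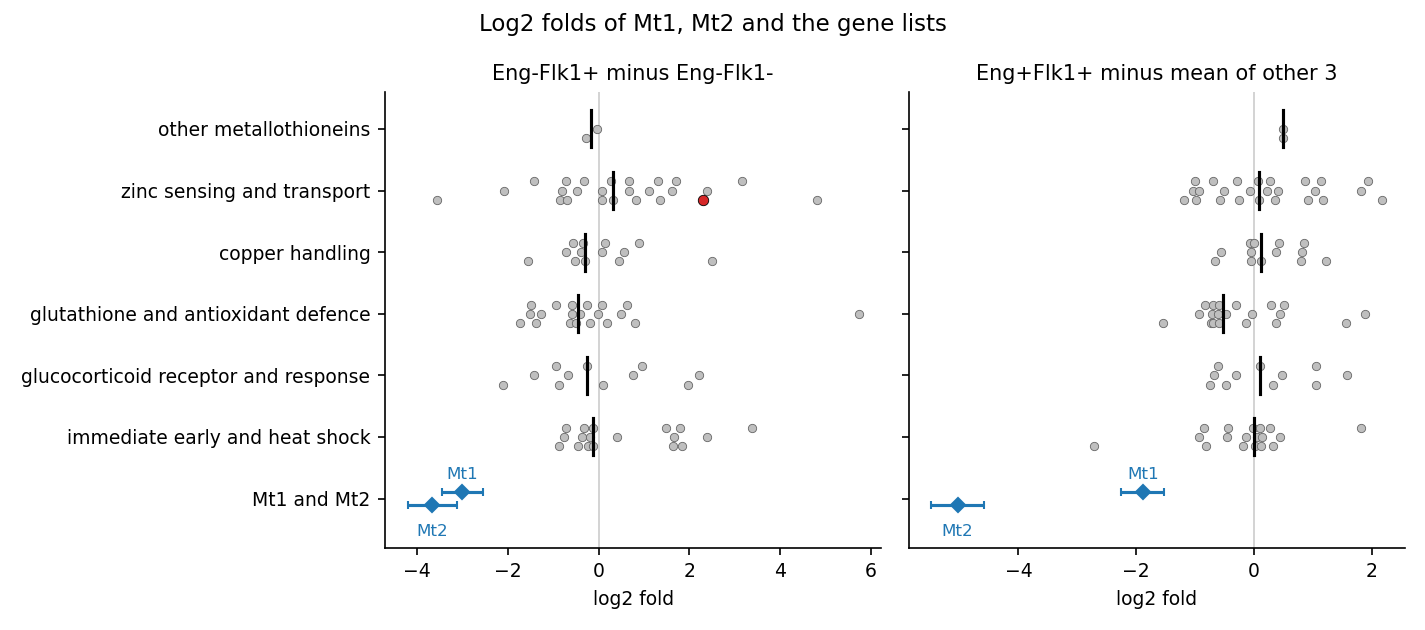
Log2 folds (x axis) of the tested members of 6 gene lists (rows) and of Mt1 and Mt2 with SE (bottom row), in Eng-Flk1+ minus Eng-Flk1- on the left and in Eng+Flk1+ minus the mean of the other fractions on the right. Grey points did not pass, red points passed at an adjusted p under 0.05, and black ticks are list medians; the single red point is Slc30a5 at 2.30, and Mt1 and Mt2 on the right are shown as the values that chose them.

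Marker lists for other cells of the embryo show which of them moved with the metallothioneins. In bulk samples fewer cells of a type and less RNA per cell cannot be told apart. The summed signal of 10 visceral endoderm markers, in multiples of the 75th percentile, ran from 39.2 to 190 in Eng-Flk1- and from 2.88 to 6.61 in Eng-Flk1+. In that contrast 4 of 9 tested markers were called lower, among them Apoa1 with a log2 fold of -6.13, beside 0.273% lower over all genes. In Eng+Flk1- the sum was 4.46 to 6.48 and 5 of 9 markers were called lower than in Eng-Flk1-, beside 0.224% over all genes. All of these visceral endoderm calls were lost with slide as a block. The sum in Eng+Flk1+ was 3.00 to 4.14.

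The marker sums of primitive red cells and of epiblast were higher in both Flk1-negative fractions, as Mt1 and Mt2 were. For 10 primitive erythroid markers the sum was 26.5 to 62.2 in Eng-Flk1- and 9.41 to 20.6 in Eng+Flk1-, against 2.97 to 3.57 with Flk1 alone and 3.13 to 5.57 in double-positive cells. A sum weighs the brightest members most. Of these markers 1 of 10, Hbb-bh1, was called lower in Eng-Flk1+ against Eng-Flk1-, beside 0.273% over all genes. In Eng+Flk1- against Eng-Flk1+, 0 of 10 were called, beside 0.101% over all genes. There 9 of 10 log2 folds were above 0, with a median of 0.82 beside 0.09 over all genes. In Eng+Flk1+ against the mean of the others 1 of 10 was called lower, beside 0.0924% over all genes, and was lost with slide as a block. For 6 epiblast markers the sum was 31.9 to 103 and 15.9 to 19.3 in the Flk1-negative fractions, against 7.04 to 12.5 and 7.09 to 9.96 in the Flk1-positive ones, with 1 of 6 called lower in Eng-Flk1+ against Eng-Flk1-, Pou5f1. The members did not all follow the sum: in Eng+Flk1- Otx2 was not well above background on any array, with a mean of -7.54 against -4.06 with Flk1 alone and -6.29 in double-positive cells. It was the 1 of 6 called lower in Eng+Flk1- against Eng-Flk1-, beside 0.224% lower over all genes. Its adjusted p was 0.0337 from limma, and its level in Eng+Flk1- is only an upper bound. Fgf5 also had its lowest mean in Eng+Flk1-, at -5.42. The Hbb-bh1, Pou5f1 and Otx2 calls were lost with slide as a block. The sum of trophoblast and extraembryonic ectoderm markers was highest in Eng+Flk1-, at 18.7 to 22.0 against 3.35 to 9.95 on the other arrays. Of 7 tested, 2 were called higher in Eng+Flk1- against Eng-Flk1-, beside 1.23% over all genes, and 1 against Eng-Flk1+, beside 0.044%. In Eng+Flk1+ against the mean of the others 1 of 7 was called lower, Cdx2 (-4.76), beside 0.0924%. These trophoblast list calls were lost with slide as a block. Maternal decidua markers ran from 3.79 to 8.88 over all arrays, with 0 of 6 called by limma in any of the 4 contrasts. At an unadjusted p under 0.05 in limma there were 2, both in Eng-Flk1+ against Eng-Flk1-, beside 4024 of 22724 over all genes. The part of these cell types in the metallothionein differences was not tested.

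The endothelial sum ran the other way. It was 35.1 to 62.2 in Eng+Flk1+, where Mt2 was lowest, 9.72 to 15.1 in Eng-Flk1+ and 2.54 to 5.78 in the Flk1-negative fractions. In Eng+Flk1+ against the mean of the others 7 of 10 endothelial markers were called higher, beside 0.317% over all genes. With slide as a block Sox18 was still called and the other 6 were not. The transcript of Flk1 followed the sort, with mean Kdr levels of 1.11 ± 0.76 (SD, n = 3) with Flk1 alone and 1.64 ± 0.18 in double-positive cells. In the Flk1-negative fractions Kdr was well above background on 3 of 6 arrays, with means of -6.20 ± 1.56 without endoglin and -5.38 ± 1.87 with it. The Eng transcript was highest in Eng+Flk1+, at 2.10 ± 0.93 (SD, n = 3), but Eng+Flk1- at 0.48 ± 0.55 was no higher than Eng-Flk1+ at 0.49 ± 1.02. Well above background were 66.5% to 76.3% of gene spots on the Eng-Flk1- arrays and 80.2% to 83.3% on the others.

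**Figure D4:**
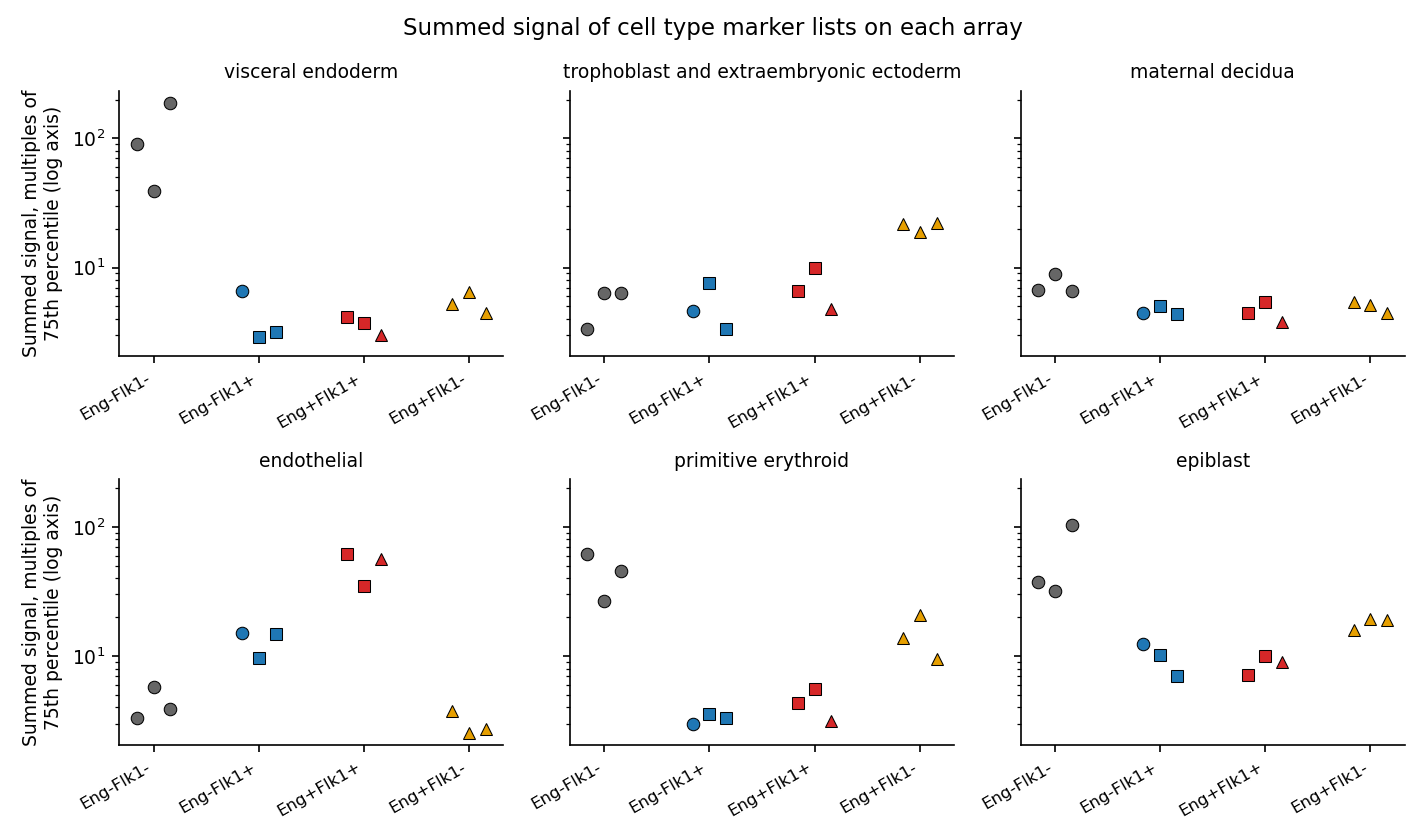
Summed signal of 6 marker lists on each array (y axis, multiples of the 75th percentile of the array, log axis) by sorted fraction (x axis), with symbols for the slide. Visceral endoderm markers are high in Eng-Flk1- alone (39.2 to 190), primitive erythroid and epiblast sums are higher in both Flk1-negative fractions, and endothelial sums peak in Eng+Flk1+ (35.1 to 62.2).

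The genes most like Mt1 and Mt2 were ranked by the lower of their Pearson correlations with both over the 12 arrays, among 17447 genes well above background on every array and with no array's value set aside as an outlier (17588 genes met the first condition). These are descriptions over arrays that share fractions and slides. Hbb-bh1, an embryonic globin of primitive red cells, ranked first, at 0.916 with Mt1 and 0.906 with Mt2. Its level was 3.83 ± 1.17 (SD, n = 3) in double-negative cells and 2.66 ± 0.38 with endoglin alone, against -1.26 ± 0.74 with Flk1 alone and -1.44 ± 0.19 in double-positive cells. Prss8, a membrane serine protease of epithelia, followed with 0.913 and 0.886, and Sdc4, a heparan sulfate proteoglycan, with 0.877 and 0.917. Slc7a5, a transporter of large amino acids, had a lower correlation of 0.865, and Ifi30, a lysosomal thiol reductase, of 0.855. Epcam, an adhesion molecule of epithelia and epiblast, had 0.843, Rnf128, a ubiquitin ligase, 0.841 and Slc2a3, a glucose transporter, 0.838.

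Rnf128 came closest to the stepped pattern of Mt2 among these 8 genes, with a correlation of 0.948 with Mt2 and 0.841 with Mt1. Its level was 1.29 ± 1.11 (SD, n = 3) in double-negative cells, 1.46 ± 0.56 with endoglin alone, -0.67 ± 0.56 with Flk1 alone and -2.81 ± 1.13 in double-positive cells. Its Eng-Flk1+ arrays lay between -1.27 and -0.18 and its Eng+Flk1+ arrays between -4.11 and -2.07, with no overlap, as for Mt2. The ranking used these same arrays, so this likeness is what it selects for and is no separate result. Mt3 ranked 13898 by the same measure.

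**Figure D5:**
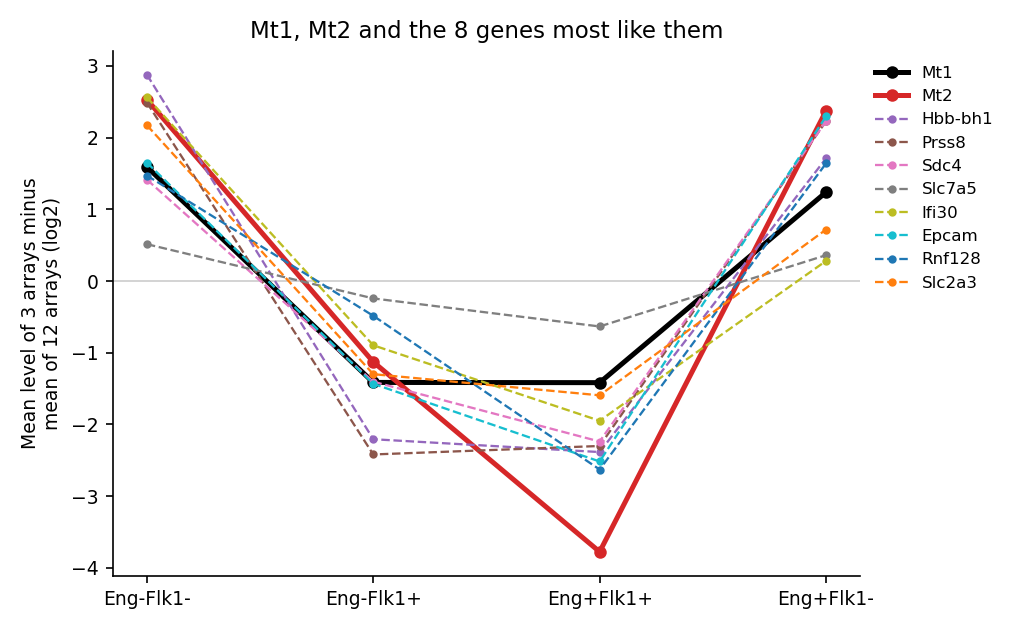
Mean level of 3 arrays in each sorted fraction (x axis) minus the mean of all 12 arrays (y axis, log2), for Mt1 and Mt2 (thick lines) and the 8 genes ranked most like them (dashed lines). All 10 genes are higher in the Flk1-negative than in the Flk1-positive fractions, which for the 8 is what the ranking selects for. Mt2 has the lowest point, in Eng+Flk1+.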

How the data were processed

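The scanner files were deposited as the authors read them with Agilent Feature Extraction 10.5.1.1, per the file headers. The deposited intensity is the processed signal per spot, with background subtracted and no scaling between arrays, per the file headers. The authors' deposited table of all samples holds intensity over each array's median, with a median of 1 in every column, and served as an alternative. The deposited files also give flags per spot for background, saturation and outliers.

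After leaving out 1639 control spots, log2 of the signal minus the array's 75th percentile was taken, outlier spots were set aside and spots of a probe were averaged. The probe with the highest mean stood for a gene. Probes were named through RefSeq (GRCm38.p6) where matched: 24367 by accession, 4646 by a shared gene name, 2625 by symbol and 1514 by synonym, with 8022 keeping the file's name. A gene was kept where 1 or more fractions had it well above background on each of 3 arrays. These 22724 of 27548 genes were fitted on all 12 arrays with limma 3.58.1 (R 4.3.3, data.table version 1.17.8), with 4 group means, moderated tests and Benjamini-Hochberg adjustment, called under 0.05. The fit was tested on simulated data. Named genes were the members, Mtf1, Slc30a1, Mt3, Mt4, Eng, Kdr, up to 3 members of each list with the lowest p in Eng+Flk1+ against the others, the 8 genes most correlated with both members, with names that are only identifiers passed over, and, chosen after their values were seen, single calls and marker examples. The members and lists were chosen with earlier results of these data known. Array number limits the precision. The other settings tried were background, scaling, filter, probe choice, intensity trend, array weights, slide, replicate number and leaving out arrays.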

Additional observations from a re-analysis of the deposited data

How the results depend on the processing

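The log2 folds of Mt1 and Mt2 kept their sign in Eng-Flk1+ against Eng-Flk1- (-3.60 to -2.36 and -4.26 to -2.79) and in Eng+Flk1+ against the others (-2.26 to -1.64 and -5.24 to -4.46) under all 21 alternatives run. The first calls held in 20 of them and were lost with slide as a block (-2.84 and -2.79). Leaving out 1 array gave -3.24 to -2.71 for Mt1 and -4.09 to -3.30 for Mt2, with limma adjusted p from 0.0072 to 0.0492 and from 0.0047 to 0.0448. Eng+Flk1- against Eng-Flk1- turned sign with quantile normalization (0.28 and 0.47), with slide as a block (0.64 and 2.22) and, for Mt2, without replicate 3 of Eng-Flk1- (0.14); leaving out 1 array gave -0.58 to -0.06 and -0.56 to 0.14. Eng+Flk1- against Eng-Flk1+ became a call with normexp (2.61 and 3.50), intensity trend (2.65 and 3.50), array weights (2.73 and 3.60) and without the Eng-Flk1- arrays (2.65 and 3.50), for Mt2 also with quantile normalization (3.52) and without replicate 2 or 3 of Eng-Flk1- (adjusted p 0.0393 and 0.0383 in limma); leaving out 1 array gave 2.49 to 2.73 and 3.14 to 3.94. The cause of these changes was not tested. The authors' table moved the median log2 fold of all genes in Eng-Flk1+ against Eng-Flk1- from -0.13 to -0.74 and normexp to -0.35; relative to the median, Mt1 was at -2.87 in both the main scaling and the authors' table and at -2.54 with normexp. In Eng+Flk1- against Eng-Flk1- Mt2 was at -0.09 relative to the median and at 0.22 with normexp.

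Counts of called genes moved by over 1.5 times as follows. In Eng-Flk1+ against Eng-Flk1- (435) they were 247 with normexp, 864 with every probe on its own, 162 with array weights, 16 with slide as a block and 166 to 994 without 1 array, beyond 1.5 times without replicate 2 of Eng-Flk1- or any Eng-Flk1+ array. In Eng+Flk1- against Eng-Flk1- (331) they were 144, 665, 103, 0 (1008 at an unadjusted p under 0.05 in limma) and 143 to 845, beyond it without replicate 1 or 2 of Eng-Flk1-, replicate 3 of Eng-Flk1+ or any Eng+Flk1- array. In Eng+Flk1- against Eng-Flk1+ (23) they were 48, 41, 237, 0 (900 unadjusted) and 7 to 53, beyond it without replicate 2 or 3 of Eng-Flk1-, any Eng-Flk1+ array, replicate 3 of Eng+Flk1+ or replicate 2 of Eng+Flk1-, with 38 for quantile normalization and 74 without the Eng-Flk1- arrays. In Eng+Flk1+ against the others (93) they were 59 with the authors' table, 162 with every probe, 5 with slide as a block and 23 to 123 without 1 array, beyond it without any array of Eng-Flk1+ or Eng+Flk1+ or replicate 2 or 3 of Eng+Flk1-.

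Replicate numbers were not used to pair the samples in the main fit, since the labels name no shared sort or day. The 18 same-number pairs correlated at -0.091 to 0.130, 1 above 0.1. Of 12 samples, 7 were closest to one of their own number, and the count to expect without pairing was not computed. The replicate block changed no Mt1 or Mt2 call (limma adjusted p of 0.0208 and 0.0238 in Eng-Flk1+ against Eng-Flk1-) and gave 10 and 35 called genes in the last 2 contrasts.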
